A study of Mus musculus with 4 samples.

Results

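The genes of glycolysis and of the response to low oxygen were followed in FACS-purified otic cells of mouse otocysts, the closed vesicles of epithelium that build the inner ear. They were chosen by symbol, and although the rule uses no measured value, it was set with earlier results of these data known. They make up 35 of the 52636 genes in the count tables. Of these, 16 are glycolytic enzymes, 5 carry glucose or lactate or control the flow through the pathway, and 14 are other known targets of the hypoxia-inducible factors (HIF). RNA-seq libraries of 2 groups were compared, 2 labelled Brg1cKO, with a conditional knockout of Brg1, and 2 labelled as controls. Neither the driver of the knockout nor the age of the embryos is given in the sources used here. Nor do the labels say whether the 2 libraries of a group come from separate embryos or litters. The p-values below therefore rest on the spread of 2 libraries per group, moderated toward the spread of the other genes tested. That spread between libraries may be technical.

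Glycolysis splits glucose into pyruvate in the cytosol, and lactate dehydrogenase can turn that pyruvate into lactate, so the route yields ATP without oxygen. Proliferating embryonic cells use it strongly even where oxygen is present. HIF is a pair of proteins, an oxygen-sensitive alpha subunit and a stable beta subunit. When oxygen is plentiful, prolyl hydroxylases mark the alpha subunit for breakdown through the VHL protein. When oxygen falls, HIF binds short DNA elements with the core ACGTG or GCGTG and raises genes for glucose uptake, glycolysis, blood vessel growth and the turnover of mitochondria.

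Reads assigned to genes numbered 29361382 and 25875555 in the Brg1cKO libraries, against 15357265 and 19132360 in the controls. The libraries also differed by group in other ways. Records that did not align made up 9.54% and 9.41% in the Brg1cKO libraries, against 20.9% and 19.1% in the controls, and those outside any gene 14.5% and 15.0% in the Brg1cKO libraries, against 21.04% and 21.6% in the controls. Genes with a read numbered 20859 and 20902 in the Brg1cKO libraries, against 17266 and 17086 in the controls. Over genes, the SD of log2 differences within a group was 1.27 for the Brg1cKO pair and 2.30 for the control pair. The part of these differences in the results was not tested. Levels below are CPM, read counts as a rate of the library total, which TMM rescales, and fold changes are of Brg1cKO over control from edgeR with the SE. The targeted gene checks the labels little. Smarca4, which encodes Brg1, had 891 and 848 CPM in the Brg1cKO libraries, against 816 and 815 CPM in the controls, and the reads take in exons that a deletion may leave in place. Markers of several cell types differed between the groups. The summed level of 12 otic epithelium markers was 319.8 and 311 CPM in the Brg1cKO libraries, against 1532 and 1811 CPM in the controls, and that of 8 neuronal markers was 453 and 399.8 CPM in the Brg1cKO libraries, against 1313 and 1359 CPM in the controls. Macrophage markers (11 genes) summed to 1579.7 and 1506 CPM in the Brg1cKO libraries, against 338 and 384 CPM in the controls, and striated muscle markers (10 genes) to 901 and 884 CPM in the Brg1cKO libraries, against 196 and 130.5 CPM in the controls. Red blood cell markers (11 genes) summed to 230.2 and 217 CPM in the Brg1cKO libraries, against 635 and 666 CPM in the controls. Of the 10 tested, 8 had a negative log2 fold change and 2, Klf1 and Gata1, a positive one at low levels. Endothelial markers (8 genes) were high in every library, with 2995 and 2955 CPM in the Brg1cKO libraries, against 2759 and 2670.4 CPM in the controls, and mesenchyme markers (6 genes) summed to 2808 and 2875 CPM in the Brg1cKO libraries, against 3662 and 3916 CPM in the controls. Fbxo2, an otic marker, was at 0 in Brg1cKO replicate 2 and in control replicate 2, Tnni1 and Myl7 of the muscle list and Klf1 of the red cell list in control replicate 2, and Gata1 of the red cell list in control replicate 1. In bulk RNA, fewer cells of a type and less RNA per cell cannot be told apart, and the part of cell composition in the results below was not tested.

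Most of the genes were at lower levels in the Brg1cKO libraries, with differences that were modest for the abundant enzymes and larger for several other HIF targets. The largest log2 fold changes were those of 2 low-level enzymes, Aldoc (-3.89) and Eno2 (-3.86). All 35 passed the filter on low counts, and 33 had a negative log2 fold change, where 48.5% of all 16557 genes tested had one. In 27 of them both Brg1cKO libraries lay under both controls, against 17.8% of all genes tested, and in 0 did both lie above both controls, against 26.3%. At an unadjusted p under 0.05, 16 were lower where 4.8% of all genes tested were, and 0 were higher, where 7.66% were. After Benjamini-Hochberg adjustment over all genes tested, 0 of the 35 were called at 0.05 by edgeR, where 0.0302% of all genes (5 of 16557) were called in either direction and 0.0181% were called lower. DESeq2 called 18 as lower, where it called 6.3% of all genes as lower, and limma voom called 1, where it called 0.205%. These counts depended on single libraries. Without control replicate 1 the same edgeR test called 20 as lower (8.82% of all genes) and without control replicate 2 it called 15 (8.39%), while without either Brg1cKO library it called 0. With a lone library in a group, that library is assumed to vary like those of the other group. Among the 30 of these genes whose log2 CPM averaged 4 or more, 28 were negative, 13 were lower at an unadjusted p under 0.05 and 23 did not overlap between groups. Over all genes at that level the shares were 51.1%, 7.04% and 22.5%. The median log2 fold change was -0.52 for these 30 of the 35 and -2.96 for the 5 at lower levels.

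**Figure D1:**
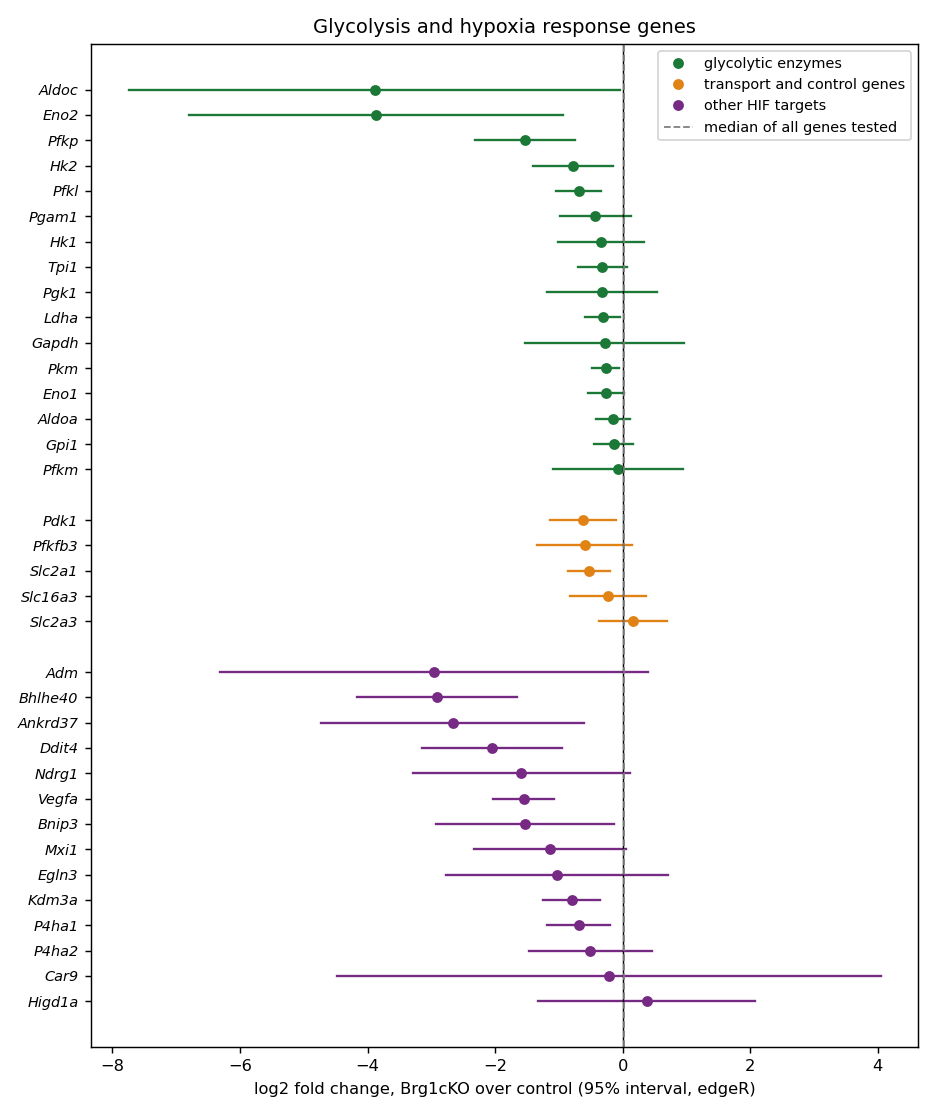
Log2 fold change of Brg1cKO over control with its 95% interval for each of the 35 genes, grouped by role, from edgeR. All 16 enzymes lie left of 0, 10 of them between 0 and -0.35, with Aldoc and Eno2 furthest at -3.89 and -3.86. The other HIF targets reach -2.96, while Slc2a3 and Higd1a lie right of 0. Intervals that cross 0 belong to genes with an unadjusted p above 0.05.

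Vegfa, the growth factor that draws blood vessels into tissue, had the smallest p of the 35. It stood at 86.1 and 81.3 CPM in the Brg1cKO libraries, against 231 and 260.2 CPM in the controls. The controls were close to each other, as were the Brg1cKO libraries, and the groups did not overlap. Its log2 fold change was -1.55 ± 0.202 (95% interval -2.03 to -1.08, adjusted p = 0.084, edgeR). The call depended on the processing: the adjusted p was 0.0212 with limma voom, 0.0228 with edgeR's newer moderation, 0.00396 with the replicate number as a block and 0.109 without Brg1cKO replicate 2, and it ranged from 1.7e-22 to 0.109 over all alternatives tried. Vegfa (ENSMUSG00000023951, mm10 chromosome 17, 46016993 to 46032369, minus strand) shares no exonic base with another gene and no read-length window with another transcript.

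Many known HIF targets carry such elements close to their start sites. The windows below, from RefSeq on GRCm38.p6, run from 250 bases before to 50 bases after the most upstream start listed. They are shown for the members of each role with the smallest p that have a window, and for Ldha, whose window holds the most matches. Capitals mark ACGTG or GCGTG on either strand, read in the gene's direction.
Vegfa (chr17:46032328-46032627, minus strand): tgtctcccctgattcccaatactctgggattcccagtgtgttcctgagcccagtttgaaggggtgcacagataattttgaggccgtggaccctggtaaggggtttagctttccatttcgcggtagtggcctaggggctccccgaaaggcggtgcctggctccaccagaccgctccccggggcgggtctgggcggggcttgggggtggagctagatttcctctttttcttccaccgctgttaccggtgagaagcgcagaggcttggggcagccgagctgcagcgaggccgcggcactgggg
Ddit4 (chr10:59951721-59952020, minus strand): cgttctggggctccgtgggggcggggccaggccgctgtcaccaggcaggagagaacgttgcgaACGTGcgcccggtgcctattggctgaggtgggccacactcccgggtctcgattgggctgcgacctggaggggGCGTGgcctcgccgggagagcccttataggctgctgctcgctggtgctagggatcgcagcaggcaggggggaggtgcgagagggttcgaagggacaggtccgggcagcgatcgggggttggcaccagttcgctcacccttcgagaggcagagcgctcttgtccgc
Pfkp (chr13:6648722-6649021, minus strand): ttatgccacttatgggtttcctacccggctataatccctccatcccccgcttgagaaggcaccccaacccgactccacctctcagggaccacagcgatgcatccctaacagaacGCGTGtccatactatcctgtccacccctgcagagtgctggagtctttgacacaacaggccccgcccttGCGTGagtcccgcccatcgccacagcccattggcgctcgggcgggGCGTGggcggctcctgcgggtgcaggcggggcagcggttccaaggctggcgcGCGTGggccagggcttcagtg
Pfkl (chr10:78009758-78010057, minus strand): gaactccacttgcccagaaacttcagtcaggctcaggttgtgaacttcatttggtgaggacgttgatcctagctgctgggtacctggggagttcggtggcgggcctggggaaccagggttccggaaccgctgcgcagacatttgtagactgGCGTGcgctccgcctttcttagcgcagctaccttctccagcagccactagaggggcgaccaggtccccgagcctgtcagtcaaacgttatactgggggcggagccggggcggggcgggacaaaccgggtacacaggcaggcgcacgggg
Slc2a1 (chr4:119108495-119108794, plus strand): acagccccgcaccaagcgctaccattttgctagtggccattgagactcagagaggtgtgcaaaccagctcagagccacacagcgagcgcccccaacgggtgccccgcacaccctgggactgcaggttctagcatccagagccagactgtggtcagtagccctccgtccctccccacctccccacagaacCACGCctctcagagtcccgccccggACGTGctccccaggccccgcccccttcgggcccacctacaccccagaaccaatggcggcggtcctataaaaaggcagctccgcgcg
Ldha (chr7:46845554-46845853, plus strand): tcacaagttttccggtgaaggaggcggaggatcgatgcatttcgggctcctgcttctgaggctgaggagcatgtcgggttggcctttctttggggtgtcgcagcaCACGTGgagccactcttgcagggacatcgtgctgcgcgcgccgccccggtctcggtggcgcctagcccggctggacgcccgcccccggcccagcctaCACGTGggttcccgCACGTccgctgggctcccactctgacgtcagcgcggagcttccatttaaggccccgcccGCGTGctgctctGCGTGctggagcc

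The Vegfa window held no match, which says only that these letters are not in this window. Ddit4 had 2 matches, Pfkp 4, Pfkl 1, Slc2a1 2 and Ldha 7. In Ldha, 2 pairs overlap, because CACGTG reads as ACGTG on both strands. Of the 35 genes, 32 had a window in the table, all but Bhlhe40, Ndrg1 and Slc2a3. ACGTG was found in 18 of the 32 (56.2%), against 19.6% of the most upstream windows of all 27025 genes in the table. GCGTG was found in 17 (53.1%), against 32.5% of all. At least 1 of them stood in 10 of 16 enzymes (62.5%), in 4 of 4 transport and control genes and in 10 of 12 other HIF targets (83.3%), against 43.8% of all genes. The comparison was not matched for base composition or expression, and the 35 genes were listed partly as known HIF targets. A match is a description of the sequence and not evidence of binding.

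Glucose enters cells through carriers of the plasma membrane. Slc2a1, the carrier GLUT1 that serves most embryonic cells, stood at 384 and 398 CPM in the Brg1cKO libraries, against 517 and 610.2 CPM in the controls. The groups did not overlap, and its log2 fold change was -0.53 ± 0.137 (adjusted p = 0.308, edgeR). Slc2a3, the high-affinity carrier GLUT3 known best in neurons and placenta, stood at 156 and 196 CPM in the Brg1cKO libraries, against 139 and 177 CPM in the controls. Here the groups overlapped, and the log2 fold change of 0.16 ± 0.228 (adjusted p = 0.878, edgeR) had the opposite sign to that of Slc2a1. The share of Slc2a3 in the 2 carriers, from CPM per kb of exon, was 16.4% and 19.3% in the Brg1cKO libraries, against 11.5% and 12.3% in the controls. Both Brg1cKO libraries lay above both controls, a difference of 5.96 percentage points, with a two-sided exact permutation p of 0.333, the smallest that 2 against 2 libraries can give.

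Hexokinases trap glucose in the cell by adding a phosphate. Hk1, the form expressed in most tissues, stood at 75.2 and 109.6 CPM in the Brg1cKO libraries, against 122 and 112 CPM in the controls. Hk2, the form known to answer to HIF and to growth signals, stood at 84.2 and 122 CPM in the Brg1cKO libraries, against 158 and 196 CPM in the controls. Neither overlapped between the groups, though for Hk1 the higher Brg1cKO library came close to the lower control. Hk2 had a log2 fold change of -0.78 ± 0.266 (unadjusted p = 0.0219, adjusted p = 0.368, edgeR), and Hk1 one of -0.34 ± 0.285 (adjusted p = 0.754). Of Hk1 plus Hk2 per kb, Hk2 made up 61.5% and 61.5% in the Brg1cKO libraries, against 64.99% and 71.4% in the controls. That share leaves out Hk3, which had 8.77 and 9.99 CPM per kb in the Brg1cKO libraries, against 0.282 and 0.216 in the controls. Hk1 had 8.82 and 12.8 CPM per kb in the Brg1cKO libraries, against 14.3 and 13.2 in the controls. Counting Hk3 would lower the Hk2 share mainly in the Brg1cKO libraries.

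Phosphofructokinase commits sugar to glycolysis and has 3 isozymes, named for liver, muscle and platelets. Pfkl, the liver form, stood at 235 and 228 CPM in the Brg1cKO libraries, against 395 and 352 CPM in the controls. Pfkp, the platelet form, stood at 51.02 and 37.95 CPM in the Brg1cKO libraries, against 152 and 105 CPM in the controls. Pfkm, the muscle form, stood at 36.1 and 48.5 CPM in the Brg1cKO libraries, against 35.2 and 53.8 CPM in the controls. Pfkl and Pfkp were lower in both Brg1cKO libraries than in both controls, with log2 fold changes of -0.69 ± 0.152 and -1.53 ± 0.332 (adjusted p = 0.228 each, edgeR). Pfkm overlapped between the groups, and its log2 fold change was -0.07 ± 0.433 (adjusted p = 0.976), which was positive without control replicate 2 and without Brg1cKO replicate 1. Per kb of exon Pfkl was the main form in every library, with 70.6% and 66.3% in the Brg1cKO libraries, against 73.01% and 68.8% in the controls, and these shares overlapped. Pfkp made up 7.65% and 5.503% in the Brg1cKO libraries, against 13.98% and 10.2% in the controls, and Pfkm 21.7% and 28.2% in the Brg1cKO libraries, against 13.01% and 20.997% in the controls. With plain counts the difference for Pfkl took the opposite sign, at 4.28 in place of -2.47 percentage points, since the exons of Pfkp in all its transcripts span 13401 bases and those of Pfkm 3340. Their principal transcripts differ less, with 4071 distinct read-length windows for Pfkp and 2943 for Pfkm. Per kb, Pfkm exceeded Pfkp in every library but control replicate 1. In CPM, Pfkp exceeded Pfkm in every library but Brg1cKO replicate 2. The order of Pfkp and Pfkm thus depends on the length used and is uncertain. Pfkp shares 748 exonic bases with Pitrm1 on the opposite strand and Pfkm 341 with Gm26513 on its own strand, so their counts are uncertain where the counting could not tell the genes apart.

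**Figure D2:**
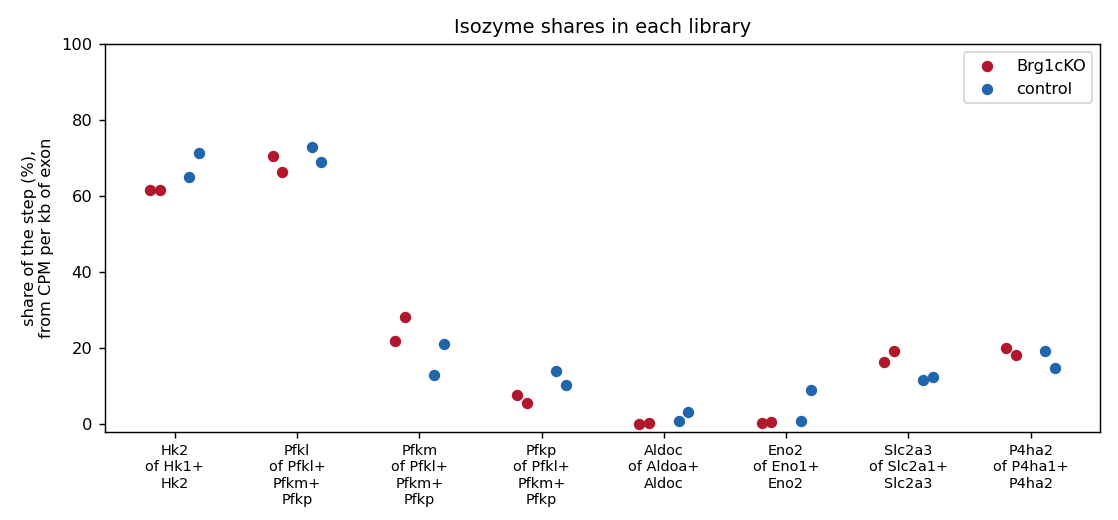
Share of an isozyme or carrier among the forms named under its column, in percent, from CPM per kb of merged exons. Each point is 1 library, with Brg1cKO left of control in each column. Pfkp lies lower and Slc2a3 higher in both Brg1cKO libraries than in both controls, while Pfkl and P4ha2 overlap.

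Aldolase and enolase each have a general and a neural form. Aldoa, the general aldolase, stood at 556 and 593 CPM in the Brg1cKO libraries, against 645 and 634 CPM in the controls. Aldoc, the aldolase of brain, stood at 0.205 and 1.74 CPM in the Brg1cKO libraries, against 5.13 and 23.7 CPM in the controls. Aldoa had a log2 fold change of -0.16 ± 0.113 (adjusted p = 0.701, edgeR), whereas Aldoc had -3.89 ± 1.64 (unadjusted p = 0.0485, adjusted p = 0.395). Eno1, the general enolase, stood at 502 and 509 CPM in the Brg1cKO libraries, against 632 and 582 CPM in the controls. Eno2, the neuronal enolase, stood at 1.37 and 2.35 CPM in the Brg1cKO libraries, against 5.002 and 49.2 CPM in the controls. The controls of Eno2 and of Aldoc lay far apart, so that the size of both differences rests on control replicate 2: without it the log2 fold change was -1.44 for Eno2 and -2.42 for Aldoc, against -3.86 ± 1.24 and -3.89 ± 1.64 with all libraries. Eno1 had a log2 fold change of -0.26 ± 0.118 (adjusted p = 0.434, edgeR). Of Eno1 plus Eno2 per kb, Eno2 made up 0.31% and 0.526% in the Brg1cKO libraries, against 0.897% and 8.83% in the controls. Left out was Eno3, another enolase, with 18.7 and 21.6 CPM per kb in the Brg1cKO libraries, against 33.5 and 19.04 in the controls. Eno2 lay under Eno3 in every library, at 0.29 and 0.50 CPM per kb in Brg1cKO libraries, against 1.06 and 10.5 in the controls. The share of Aldoc in the aldolase level per kb was 0.0329% and 0.261% in the Brg1cKO libraries, against 0.704% and 3.23% in the controls. Of the neuronal marker list, which holds neither gene, all 8 genes were lower in both Brg1cKO libraries, where 17.8% of all genes tested were. Elavl3, a neuronal RNA-binding protein, had 27.2 and 21.6 CPM in Brg1cKO against 84.5 and 84.3 CPM in control libraries. The part of neurons in the values for Eno2 and Aldoc was not tested.

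The remaining enzymes lead from glucose phosphate to pyruvate and lactate. Pkm, pyruvate kinase, which makes pyruvate and ATP, stood at 1056 and 1065 CPM in the Brg1cKO libraries, against 1250.3 and 1303 CPM in the controls. Its log2 fold change was -0.27 ± 0.0884, with a 95% interval from -0.48 to -0.06 (unadjusted p = 0.0183, adjusted p = 0.368, edgeR), and it shares 767 exonic bases with Gm49759 on its own strand. Ldha, which turns pyruvate into lactate, stood at 656 and 579 CPM in the Brg1cKO libraries, against 761 and 776 CPM in the controls. Both genes were lower in both Brg1cKO libraries, and Ldha had a log2 fold change of -0.32 ± 0.115 (unadjusted p = 0.0277, adjusted p = 0.368, edgeR). Tpi1, triose phosphate isomerase, stood at 209.9 and 215 CPM in the Brg1cKO libraries, against 259 and 271 CPM in the controls. Gpi1, which turns glucose phosphate into fructose phosphate, stood at 388 and 397 CPM in the Brg1cKO libraries, against 423 and 441 CPM in the controls. Neither Tpi1 nor Gpi1 overlapped between the groups, with log2 fold changes of -0.32 ± 0.163 and -0.14 ± 0.129 (adjusted p = 0.519 and 0.782, edgeR). Pgam1, phosphoglycerate mutase, stood at 98.98 and 92.8 CPM in the Brg1cKO libraries, against 123 and 135 CPM in the controls. Its groups did not overlap either, and the log2 fold change was -0.43 ± 0.239 (adjusted p = 0.573, edgeR).

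Pgk1 and Gapdh, the pair of enzymes behind the first ATP that glycolysis forms, overlapped between the groups. Pgk1, phosphoglycerate kinase, stood at 232 and 285 CPM in the Brg1cKO libraries, against 192 and 454 CPM in the controls. The controls enclosed both Brg1cKO libraries, and the log2 fold change of -0.32 ± 0.365 (adjusted p = 0.833, edgeR) was 0.42 when control replicate 2 was left out and -0.81 when control replicate 1 was. Gapdh, the dehydrogenase often used as a reference gene, stood at 21.99 and 28.1 CPM in the Brg1cKO libraries, against 23.9 and 36.9 CPM in the controls. Those groups overlapped, and the log2 fold change was -0.28 ± 0.531 (adjusted p = 0.915), turning positive at 0.048 without control replicate 2.

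Gapdh has many near-identical copies in the genome. Of the 1420 distinct 75-base windows in its principal transcript, 76.1% occur unchanged in a transcript of another gene, and over all Gapdh transcripts 118 other genes share such a window, 112 of them annotated as pseudogenes. Reads of that length from those windows have more than 1 exact place in the transcriptome. The share was 67.5% for Pgk1, 65.4% for Eno1, 40.6% for Pgam1 and 19.6% for Pkm, and under 16% for the other genes. It was 0 for 24 of the 35, Vegfa, Pfkl, Pfkp, Hk2 and Slc2a1 among them. Gene reads in the 118 genes that share windows with Gapdh came to 4344 and 3939 in the Brg1cKO libraries, against 4541 and 3387 in the controls, while Gapdh itself had 644 and 728 reads in the Brg1cKO libraries, against 368 and 695 in the controls. Records not uniquely aligned were tallied apart from the genes, and no gene count holds them. They made up 8.95% and 9.01% of records in the Brg1cKO libraries, against 7.63% and 7.76% in the controls. Reads from shared windows that were marked in this way are thus missing from the levels of these genes. How many such reads each gene lost is not known. The levels of Gapdh, Pgk1, Eno1 and Pgam1 are uncertain, and their order among the enzymes is not given.

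**Figure D3:**
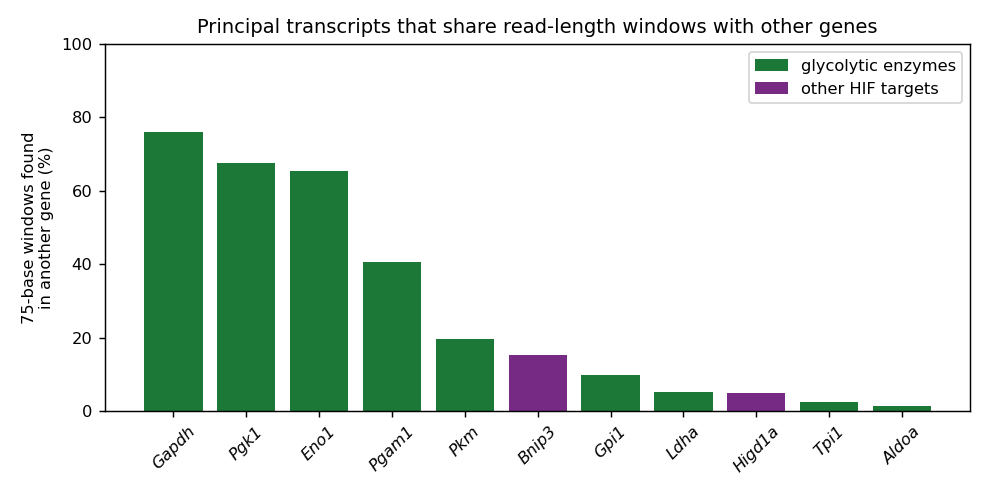
Percent of the 75-base windows of each gene's principal transcripts that also occur in a transcript of another gene, for the 11 genes above 0. Gapdh stands highest at 76.1%, followed by Pgk1 and Eno1, and 9 of the 11 are glycolytic enzymes.

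Between genes, levels were compared per kb of exon, for genes with few or no shared windows apart from Pkm. Pkm averaged 212 in the Brg1cKO libraries and 255 in the controls CPM per kb, Ldha 186 in the Brg1cKO libraries and 232 in the controls, and Aldoa 197 in the Brg1cKO libraries and 219.8 in the controls. Aldoa was above Ldha in Brg1cKO replicate 2 only, and below it in the other 3 libraries. Slc2a1 averaged 111 in the Brg1cKO libraries and 161 in the controls CPM per kb, and Vegfa 19.5 in the Brg1cKO libraries and 57.3 in the controls. The 16 enzymes summed to 4203 and 4314 CPM in the Brg1cKO libraries, against 5181 and 5525 CPM in the controls, and the 5 transport and control genes to 809.9 and 869.6 CPM in the Brg1cKO libraries, against 1046 and 1167 CPM in the controls. The 14 other HIF targets summed to 475 and 502 CPM in the Brg1cKO libraries, against 1051 and 1051 CPM in the controls. The median log2 fold change was -0.32 for the enzymes, -0.53 for transport and control genes and -1.33 for the other HIF targets, where it was 0.03 for all genes tested. The differences between these 3 medians were not tested.

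Pdk1, Pfkfb3 and Slc16a3 act on pyruvate, lactate and the flow through the pathway. Pdk1, a kinase that inhibits pyruvate dehydrogenase, stood at 122 and 111 CPM in the Brg1cKO libraries, against 199 and 159 CPM in the controls. Pfkfb3, which makes the activator of phosphofructokinase, stood at 60.1 and 71.1 CPM in the Brg1cKO libraries, against 82.5 and 116 CPM in the controls. Slc16a3, the lactate exporter MCT4, stood at 88.8 and 92.99 CPM in the Brg1cKO libraries, against 109 and 105 CPM in the controls. None of the 3 overlapped between the groups. Pdk1 had a log2 fold change of -0.62 ± 0.223 (unadjusted p = 0.0257, adjusted p = 0.368, edgeR), Pfkfb3 -0.60 ± 0.314 (adjusted p = 0.538) and Slc16a3 -0.23 ± 0.254 (adjusted p = 0.82).

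**Figure D4:**
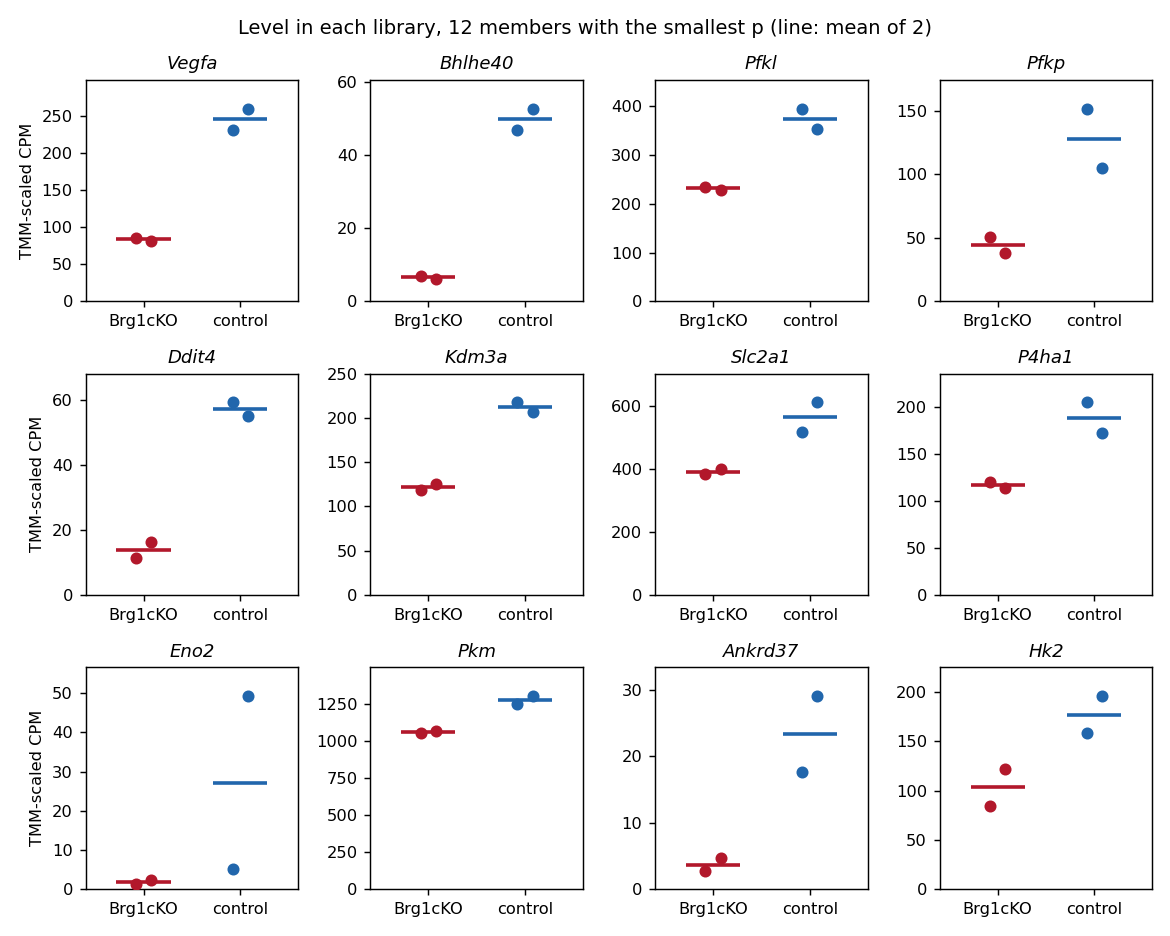
TMM-scaled CPM in each library for the 12 genes with the smallest p, with Brg1cKO left of control, points for libraries and a line at the mean of 2. In every panel both Brg1cKO points lie under both control points.

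Bhlhe40, Ddit4, Mxi1 and Kdm3a are HIF targets that act on transcription and growth. Bhlhe40, a repressor of the clock and of differentiation genes, stood at 7.001 and 6.17 CPM in the Brg1cKO libraries, against 46.8 and 52.6 CPM in the controls. Its log2 fold change of -2.91 ± 0.534 (95% interval -4.17 to -1.66, adjusted p = 0.139, edgeR) came from groups far apart and libraries close within each. Ddit4, an inhibitor of the growth kinase mTORC1, stood at 11.3 and 16.4 CPM in the Brg1cKO libraries, against 59.3 and 55.1 CPM in the controls. The log2 fold change was -2.05 ± 0.467 (95% interval -3.14 to -0.95, adjusted p = 0.233, edgeR). Mxi1, an antagonist of MYC, stood at 22.7 and 41.7 CPM in the Brg1cKO libraries, against 94.9 and 47.3 CPM in the controls. For Mxi1 the groups came close, with control replicate 1 well above the rest, and the log2 fold change was -1.14 ± 0.504 (adjusted p = 0.427, edgeR). Kdm3a, a demethylase of histone H3, stood at 119 and 125 CPM in the Brg1cKO libraries, against 217 and 207 CPM in the controls. Its log2 fold change of -0.80 ± 0.193 (adjusted p = 0.269, edgeR) was smaller than that of Bhlhe40 or Ddit4, with narrow spread in both groups.

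Egln3, Ankrd37, Bnip3 and Higd1a include a feedback regulator of HIF and proteins of mitochondria. Egln3, a prolyl hydroxylase that acts back on HIF, stood at 10.04 and 18.2 CPM in the Brg1cKO libraries, against 15.3 and 42.3 CPM in the controls. The groups overlapped, and the controls lay far apart. Ankrd37, a small ankyrin-repeat protein, stood at 2.63 and 4.71 CPM in the Brg1cKO libraries, against 17.5 and 29.02 CPM in the controls. Bnip3, which marks mitochondria for removal, stood at 8.88 and 20.7 CPM in the Brg1cKO libraries, against 43.3 and 42.02 CPM in the controls. Both genes were lower in both Brg1cKO libraries, with log2 fold changes of -2.67 ± 0.88 and -1.53 ± 0.593 (unadjusted p = 0.0183 and 0.0362, adjusted p = 0.368 each, edgeR). Ankrd37 shares 406 exonic bases with Lrp2bp and Ufsp2 on the opposite strand, Bnip3 504 with Gm45507, Higd1a 683 with Gm47112, Ndrg1 556 with Gm17035 and Gm2895 and Gpi1 741 with Gm26762, so these counts are uncertain if the counting ignored strand. Higd1a, a protein of the mitochondrial inner membrane, stood at 19.02 and 25.1 CPM in the Brg1cKO libraries, against 9.35 and 24.6 CPM in the controls. It overlapped between the groups, and its log2 fold change of 0.38 ± 0.72 (adjusted p = 0.916, edgeR) became -0.15 without control replicate 1.

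P4ha1, P4ha2, Adm, Ndrg1 and Car9 made up the rest. P4ha1, a collagen prolyl hydroxylase subunit, stood at 120.2 and 114 CPM in the Brg1cKO libraries, against 205 and 172 CPM in the controls. Its paralog P4ha2 stood at 45.8 and 38.1 CPM in the Brg1cKO libraries, against 74.4 and 45.4 CPM in the controls. P4ha1 did not overlap and had a log2 fold change of -0.69 ± 0.211 (unadjusted p = 0.0130, adjusted p = 0.365, edgeR), while P4ha2 overlapped narrowly, with -0.51 ± 0.41 (adjusted p = 0.743). Of the mesenchyme markers, Col1a1 had 568 and 580.4 CPM in Brg1cKO against 1107 and 1207 CPM in control libraries and Col3a1 1300.2 and 1358 CPM in Brg1cKO against 1188 and 1299 CPM in control libraries, lower and higher in both Brg1cKO libraries, and the part of mesenchyme in the values for P4ha1 was not tested. Adm, the vessel-widening peptide adrenomedullin, stood at 3.52 and 0.386 CPM in the Brg1cKO libraries, against 10.7 and 19.8 CPM in the controls. Ndrg1, a stress-induced protein of epithelia, stood at 17.7 and 6.56 CPM in the Brg1cKO libraries, against 24.04 and 48.7 CPM in the controls. In both genes the Brg1cKO libraries were lower but several-fold apart, with log2 fold changes of -2.96 ± 1.42 and -1.59 ± 0.721 (adjusted p = 0.481 and 0.446, edgeR). Car9, a carbonic anhydrase of the cell surface and a sensitive marker of HIF activity, was low. It stood at 1.16 and 4.28 CPM in the Brg1cKO libraries, against 1.82 and 4.51 CPM in the controls. It had 34 and 111 reads in the Brg1cKO libraries, against 28 and 85 in the controls. The libraries of each group lay far apart, and the 95% interval of -4.48 to 4.05 leaves the direction and size of a difference unknown.

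Of 16 genes for HIF subunits and their regulators, none passed at an unadjusted p under 0.05, with 12 negative, 4 positive and a median log2 fold change of -0.24. Hif1a, the main alpha subunit, stood at 181 and 205 CPM in the Brg1cKO libraries, against 192 and 266 CPM in the controls. Epas1, the alpha subunit HIF2 alpha of endothelium, stood at 165 and 132 CPM in the Brg1cKO libraries, against 209 and 141 CPM in the controls. Both overlapped between the groups. Arnt2, a beta subunit, had 62.4 and 60.4 CPM in Brg1cKO against 126 and 65.9 CPM in control libraries, without overlap but with 1 control close to the Brg1cKO libraries. Egln1, the main prolyl hydroxylase, stood at 93.5 and 114 CPM in the Brg1cKO libraries, against 127 and 163 CPM in the controls, without overlap and with a log2 fold change of -0.48 ± 0.253 (adjusted p = 0.537, edgeR). The coactivator Ep300 had 279.8 and 229.8 CPM in Brg1cKO against 367 and 283 CPM in control libraries, and Crebbp 182 and 207 CPM in Brg1cKO against 260.1 and 222 CPM in control libraries, also without overlap. On the other side, Arnt, the beta subunit found in most cells, had 94.8 and 111 CPM in Brg1cKO against 90.8 and 54.7 CPM in control libraries. Elob and Eloc, which join VHL in its ubiquitin ligase, had 87.1 and 97.9 CPM in Brg1cKO against 39.6 and 78.6 CPM in control libraries and 37.2 and 46.4 CPM in Brg1cKO against 31.8 and 9.87 CPM in control libraries. These 3 were higher in both Brg1cKO libraries (adjusted p = 0.667, 0.622 and 0.646, edgeR), where 6 of the 16 were lower in both. Of all genes tested, 26.3% were higher in both and 17.8% lower in both. HIF is controlled mainly through protein stability, which RNA does not show.

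Further HIF targets, taken from a second list, were split by sign. Of 23 tested, 11 were negative and 12 positive, with a median of 0.02. At an unadjusted p under 0.05, 2 were lower and 1 was higher, where 4.8% of all genes tested were lower and 7.66% higher. Fam162a, a mitochondrial protein, stood at 46.4 and 47.8 CPM in the Brg1cKO libraries, against 119 and 113 CPM in the controls. Gys1, glycogen synthase, stood at 67.9 and 73.7 CPM in the Brg1cKO libraries, against 124 and 112 CPM in the controls. Hmox1, haem oxygenase, which macrophages express strongly, stood at 93.99 and 77.4 CPM in the Brg1cKO libraries, against 16.6 and 46.5 CPM in the controls. Fam162a and Gys1 lay lower in both Brg1cKO libraries and Hmox1 higher, with log2 fold changes of -1.30 ± 0.285, -0.73 ± 0.265 and 1.44 ± 0.522 (adjusted p = 0.228, 0.368 and 0.368, edgeR). Plod2, a collagen lysyl hydroxylase, had 79.95 and 105 CPM in Brg1cKO against 178 and 98.9 CPM in control libraries, and Wsb1, highest of the list in CPM without correction for length, 305 and 296 CPM in Brg1cKO against 321 and 243 CPM in control libraries, both with overlap. Epo, the hormone of red cell formation, was not tested for lack of reads.

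Isozymes and carriers outside the 35 went both ways, with 7 negative and 9 positive of 16 tested and a median of 0.02. Hk3, the hexokinase of white blood cells, stood at 32.3 and 36.8 CPM in the Brg1cKO libraries, against 1.04 and 0.796 CPM in the controls. Its log2 fold change was 5.23 ± 0.799 (adjusted p = 0.106, edgeR), in libraries where Csf1r, a macrophage receptor, had 298 and 289 CPM in Brg1cKO against 106 and 56.7 CPM in control libraries and all 11 macrophage markers were positive. Ldhb, the lactate dehydrogenase subunit that favours pyruvate, stood at 76.3 and 73.5 CPM in the Brg1cKO libraries, against 159 and 125 CPM in the controls. Slc16a1, the lactate carrier MCT1, stood at 79.1 and 83.04 CPM in the Brg1cKO libraries, against 42.4 and 48.7 CPM in the controls. Ldhb thus lay lower and Slc16a1 higher in both Brg1cKO libraries, with log2 fold changes of -0.92 ± 0.26 and 0.83 ± 0.326 (adjusted p = 0.339 and 0.368, edgeR). Pgk2, Pklr, Ldhc and Slc2a2 were not tested for lack of reads.

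Pathways that share substrates with glycolysis had positive medians. In the pentose phosphate pathway, which makes NADPH and ribose from glucose phosphate, 5 of 7 genes were positive (median log2 fold change 0.29) and 2 were higher at an unadjusted p under 0.05, as were 7.66% of all genes tested. Tkt, transketolase, stood at 423 and 436 CPM in the Brg1cKO libraries, against 324 and 343 CPM in the controls. Its log2 fold change was 0.37 ± 0.135 (adjusted p = 0.368, edgeR), and both Pgd, at 167 and 206 CPM in Brg1cKO against 132 and 134 CPM in control libraries, and Pgls, at 91.4 and 61.9 CPM in Brg1cKO against 43.6 and 39.7 CPM in control libraries, also lay higher in both Brg1cKO libraries. G6pdx, the entry enzyme, had 79.5 and 88.8 CPM in Brg1cKO against 59.1 and 78.2 CPM in control libraries, again higher in both. For pyruvate entry and the TCA cycle, 18 of 23 genes were positive (median 0.21), and 3 were higher and 0 lower at an unadjusted p under 0.05, where 7.66% of all genes tested were higher and 4.8% lower. Those 3 were Pdha1, a subunit of pyruvate dehydrogenase, Sdhd, a subunit of succinate dehydrogenase, and Mpc1, a pyruvate carrier of mitochondria. Pdha1 stood at 134 and 147 CPM in the Brg1cKO libraries, against 93.3 and 94.1 CPM in the controls. Sdhd stood at 92.8 and 89.1 CPM in the Brg1cKO libraries, against 33.9 and 55.4 CPM in the controls. Mpc1 had 5.12 and 1.97 CPM in Brg1cKO against 0 and 0 CPM in control libraries, which is at least 40.5-fold higher against a floor of 3 counts over the controls, from low counts. Pdhx had 22.95 and 35.3 CPM in Brg1cKO against 13.1 and 14.2 CPM in control libraries and Mdh2, highest of the list in CPM, 298 and 245 CPM in Brg1cKO against 275 and 194 CPM in control libraries. The adjusted p was 0.368 for Tkt, Pdha1, Sdhd and Mpc1 (edgeR), so none of the 4 was called, and differences between these lists and the 35 genes were not tested.

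**Figure D5:**
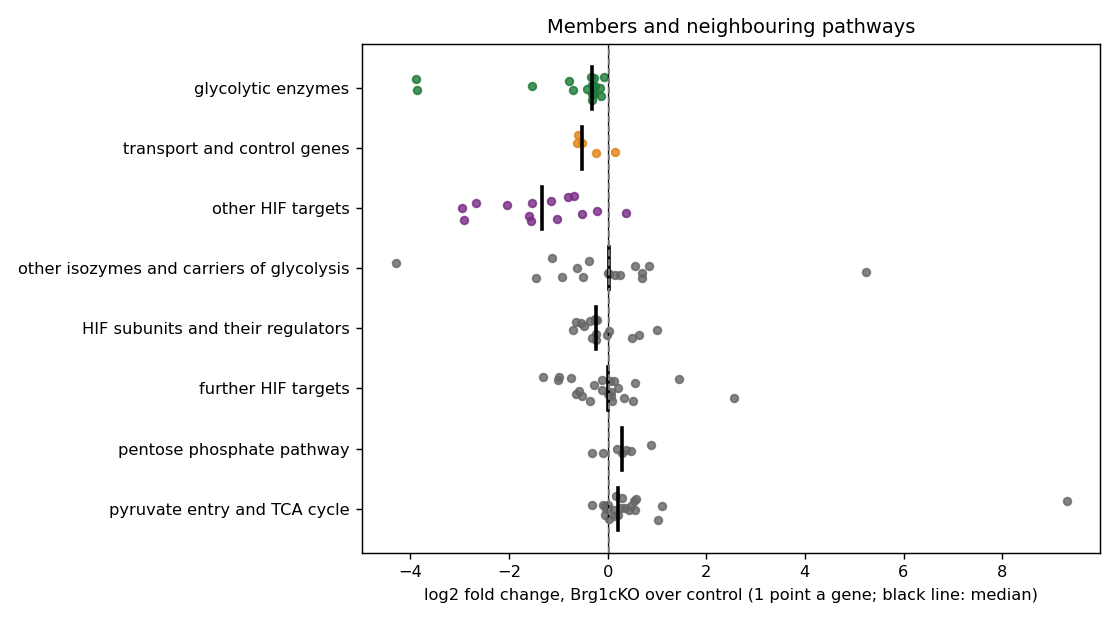
Log2 fold change of Brg1cKO over control for each tested gene of the 3 groups of members (coloured) and of 5 neighbouring lists (grey), with a black line at each median and a dashed line at 0.03, the median of all genes tested. The 3 groups have medians of -0.32, -0.53 and -1.33, and the pentose phosphate and TCA lists 0.29 and 0.21; the point at 9.31 is Mpc1, at 0 in both controls, whose fitted value depends on the prior count.

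Genes that respond to cell handling differed in both directions, with 5 of 10 negative and 5 positive. At an unadjusted p under 0.05, 2 were lower and 3 higher, where 4.8% of all genes tested were lower and 7.66% higher. None was called after adjustment. Hspa1b, a heat shock protein, had 5.46 and 4.09 CPM in Brg1cKO against 38.3 and 38.2 CPM in control libraries, and Egr1, an immediate early factor, 291 and 299.8 CPM in Brg1cKO against 466 and 370.5 CPM in control libraries. Fosb, Atf3 and Dusp1, also induced by stress, were higher, with 526 and 458 CPM in Brg1cKO against 308 and 328 CPM in control libraries, 74.8 and 66.5 CPM in Brg1cKO against 27.7 and 31.4 CPM in control libraries and 169 and 191 CPM in Brg1cKO against 109 and 87.1 CPM in control libraries. Jun, highest of the list in CPM, had 502 and 536 CPM in Brg1cKO against 626 and 515 CPM in control libraries, with overlap. The part of handling in the values of the 35 genes was not tested.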

How the data were processed

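RNA was sequenced from 3000 sorted cells per library with a random-primed, strand-specific kit, from a single end over 75 bases, per the labels' protocols. The deposited tables hold unnormalized counts of reads for each gene. HISAT2, HTSeq, DESeq2 and mm10 are named in the submitters' processing notes without role or version; neither annotation nor strand setting is given in the sources used here. Genes held 64.0% and 63.7% of records in the Brg1cKO libraries and 48.2% and 49.3% in the controls; the rest stood in 5 lines that name no gene and were left out.

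Symbols came from GENCODE M21, which matched 52403 of 52636 identifiers. Aldoa has 2 identifiers, and the one with more reads was used. Counts were tested with edgeR 4.0.16 (R 4.3.3) on all genes kept by filterByExpr with a minimum count of 10, with TMM scaling and robust quasi-likelihood moderation, and p-values were adjusted by Benjamini-Hochberg. DESeq2 1.42.0 and limma 3.58.1 were alternatives. The fits were tested on simulated data. All 35 genes are named, with up to 4 genes of each neighbouring list by smallest p, and its most abundant gene; markers and a few other genes were named for their role after their values were seen, and some genes of these lists are not reported here. The members and lists were chosen with earlier results of these data known. Exon lengths are those of all transcripts merged. Fold intervals cover the spread between libraries only, and, with no molecular identifiers, reads are not independent molecules.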

Additional observations from a re-analysis of the deposited data

Results flagged for a closer look

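Among the records that no gene count holds, 2 kinds stood higher in the Brg1cKO libraries. The share of records aligned to several places averaged 8.98% in the Brg1cKO libraries and 7.70% in the controls, and the share ambiguous between genes averaged 2.98% in the Brg1cKO libraries and 2.22% in the controls. These shares are of all records, and more records failed to align in the controls. Of aligned records, 9.90% and 9.94% in the Brg1cKO libraries had several places, against 9.65% and 9.60% in the controls. Ambiguous ones made up 3.32% and 3.26% of aligned records in the Brg1cKO libraries, against 2.82% and 2.73% in the controls. Per 100 reads in genes, 13.99 and 14.2 in the Brg1cKO libraries had several places, against 15.8 and 15.7 in the controls, so the direction of that measure turns with the denominator.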

How the results depend on the processing

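The 16 other settings of the fits covered scaling, filters, tools, moderation, depth, a threshold, the replicate block and each library left out. Of all genes, 417 were called with every gene of at least 1 count, 10 with a minimum count of 50, 2422 with DESeq2, 54 with voom, 62 with the newer moderation, 140 with the replicate block, 38 at an adjusted p under 0.10 and 33 to 3519 with a library left out. Of the 35 genes, 6, 0, 18, 1, 1, 1, 1 and 0 to 20 were then called lower and 0 higher. At an unadjusted p under 0.05, 25 were lower with DESeq2 and 5 to 23 with a library left out, where 0 to 1 were higher; 0 to 4 then lay above the controls without overlap. Of all genes, 11.1% were lower at that p with DESeq2 and 1.69% to 13.4% with a library left out. The number of the 35 lying lower without overlap was 26 to 28 with all libraries and 28 to 32 with a library left out, where 22.2% to 34.5% of all genes did. With a library left out, the median log2 fold change was -0.55 to -0.35 for transport and control genes, -1.54 to -0.89 for the other HIF targets and -0.42 to -0.27 for the enzymes. The sign turned when a library was left out for Higd1a (-0.15 to 1.22), Pfkm (-0.34 to 0.25), Gapdh (-0.55 to 0.048), Pgk1 (-0.81 to 0.42), Car9 (-1.43 to 0.56) and Slc2a3 (-0.0096 to 0.33), and for none of the other 29 under any setting. With plain counts in place of levels per kb, the shares differed by 4.28 points for Pfkl, -9.32 for Pfkp and 9.16 for Slc2a3. Windows found in no other gene, a length measure chosen after seeing the data, moved no share beyond the spread between replicates. That measure could change most shares little, since Hk1, Hk2, Pfkl, Pfkp, Aldoc, Eno2, Slc2a1, P4ha1 and P4ha2 share no window with another gene. It therefore says little about how stable the shares are. The P4ha2 share difference ran from -0.20 to 4.32 points with a library left out. The replicate numbers do not pair the libraries by any label, and the deviations of same-numbered libraries had a correlation of -0.0053 over genes; with the block, Vegfa was called (adjusted p = 0.00396, edgeR) and no other of the 35. The median over all genes was 0.07 under upper quartile scaling and -0.01 under RLE, and up to 0.29 with a control left out, where more genes were tested. The causes of these shifts were not tested. Counts were low for Aldoc, Adm, Car9, Eno2 and Ankrd37, with 6, 10, 28, 40 and 77 reads in their lowest library, and their values are uncertain.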
